A study of Brassica napus with 6 samples.

Results

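The copper-linked miRNA families miR408 and miR398 were followed in young pistils and siliques (seed pods) of rapeseed, Brassica napus. Members were the names of these families in the deposited tables of known miRNAs, and 4 of the 69 names belonged to them: ath-miR408-5p, aly-miR408-5p, bol-miR398a-5p and bra-miR398-5p. The prefix of a name gives the species of the database entry (ath for Arabidopsis thaliana, aly for Arabidopsis lyrata, bol for Brassica oleracea, bra for Brassica rapa), not the source of the RNA. Per the labels, both groups were field-grown backcross progeny of the cross 8008 × 4942, one with long siliques (LS) and one with short siliques (SS), with 2 small RNA libraries each and 1 degradome library each. Tissue covered 0 to 7 days after pollination, with material of about 12 plants pooled per stage, so a level is an average over plants and stages. The labels give no treatment, and no copper supply is stated. In such bulk tissue, fewer cells of a type and less RNA per cell cannot be told apart.

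As background, copper is scarce in many soils, and in Arabidopsis the transcription factor SPL7 switches on a small set of miRNAs when copper runs low. These miRNAs lower mRNAs of dispensable copper proteins, which spares copper for plastocyanin in photosynthesis. There miR398 acts on copper/zinc superoxide dismutases and their copper chaperone, miR408 on plantacyanin and laccases, and miR397 and miR857 on laccases. A miRNA precursor is a hairpin with a 5′ and a 3′ arm. For miR408 and miR398 the 3′ arm gives the usual guide strand that is loaded into ARGONAUTE, and the 5′ arm gives the strand opposite to it. All 4 member names denote the 5′ arm and 0 denote the 3′ arm, so every value below measures the strand opposite to the usual guide. The tables give names without sequences, so the arm was taken from the name and not checked against reads. Of the 69 names 22 denote a 5′ arm, 13 a 3′ arm and 34 no arm, and 5 of the 39 families have names for both arms.

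The library totals lay between 6046506 and 6739286 reads, of which known miRNAs took from 4.82% to 6.51%. A difference in reads per 1000000 reads of the library total (RPM) can therefore also reflect this larger share in SS, since the tested miRNAs had a median log2 fold change of 0.41 on the scale of the library totals. On the TMM scale, which aligns the libraries on the bulk of the known miRNAs, that median was 0.12. Between LS library 1 and LS library 2, counts of 54 miRNAs differed by no more than sampling noise (chi-square of 0.921 per degree of freedom, p = 0.639). LS was therefore counted as 1 sample, and its levels carry a 95% counting interval. Between the SS libraries, counts of 55 miRNAs differed by more than sampling noise (chi-square of 1.61 per degree of freedom, p = 0.00269). Levels in SS are therefore given as the mean of 2 libraries with its SD. The labels speak of replicated experiments without tying libraries to them, so the p-values cover no more than the spread among these libraries, possibly a technical one. The LS libraries enter the fits as separate samples unless stated, so the p-values of those fits may be too small. Intervals cover counting error only.

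ath-miR408-5p was the most abundant member by far and rose in SS. It was counted 1153 and 1181 times in LS and 2844 and 3098 times in SS. In RPM these were 179.9 and 175.2 in LS and 470.4 and 483.8 in SS. Both SS libraries lay far above both LS libraries, and the libraries of a line lay close together. SS lay above LS without overlap for 69.6% of all 69 known names on this scale. The mean was 477 ± 9.53 RPM in SS (SD, n = 2) and 178 RPM in LS (counting interval 170 to 185), a ratio of 2.69 (exact counting interval 2.56 to 2.82). By number of reads it ranked 13 of the 69 known miRNAs in both LS libraries and 10 in both SS libraries. Its share of the known miRNA reads, which does not depend on the library total, was 0.373% and 0.364% in LS and 0.723% and 0.745% in SS. The log2 fold change of SS over LS on the TMM scale was 1.13 ± 0.04 (SE, edgeR adjusted p = 3.25e-52), the 4th highest of the 52 tested miRNAs. Across the 52, 34.6% were called higher in SS, so a call alone did not set it apart. With the LS libraries summed into 1 sample it was 1.12 ± 0.05 (edgeR adjusted p = 1.13e-28).

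aly-miR408-5p, the other miR408 name, was a minor entry whose line difference was not detectable at this depth. Each LS library held 13 of its reads, SS library 1 held 17 and SS library 2 held 15. These were 2.03 and 1.93 RPM in LS and 2.81 and 2.34 RPM in SS. The SS values lay above the LS values, as they did for 69.6% of all 69 known names on this scale, but the counting intervals of all 4 libraries overlapped. The ratio of SS to LS was 1.30 (exact counting interval 0.751 to 2.27), an interval that ends below the 2.69 of ath-miR408-5p. On the TMM scale the log2 fold change was 0.08 ± 0.41 (SE, edgeR adjusted p = 0.881), and its sign was negative with RLE factors, with DESeq2, with no factor and without SS library 1.

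Within the miR408 reads, the share of the minor name was lower in SS. aly-miR408-5p held 1.11% of the miR408 reads in LS library 1 (Clopper-Pearson 95% interval 0.595% to 1.90%) and 1.09% in LS library 2 (0.581% to 1.86%). For the SS libraries the share was 0.594% (0.347% to 0.950%) in library 1 and 0.482% (0.270% to 0.794%) in library 2. Both SS values lay below both LS values, though the intervals overlap, on a measure that needs no scaling between libraries. The mean share was 1.10% in LS and 0.538% in SS, and the exact two-sided permutation test over libraries gave p = 0.333, the smallest value that 2 against 2 libraries allow. On the summed reads, Fisher's exact test gave an odds ratio of 0.484 (0.279 to 0.847, p = 0.00786), which compares these libraries and covers counting error only. Near-identical entries can share reads, and how the authors assigned a read to ath-miR408-5p or aly-miR408-5p is not given in the sources used here.

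**Figure D1:**
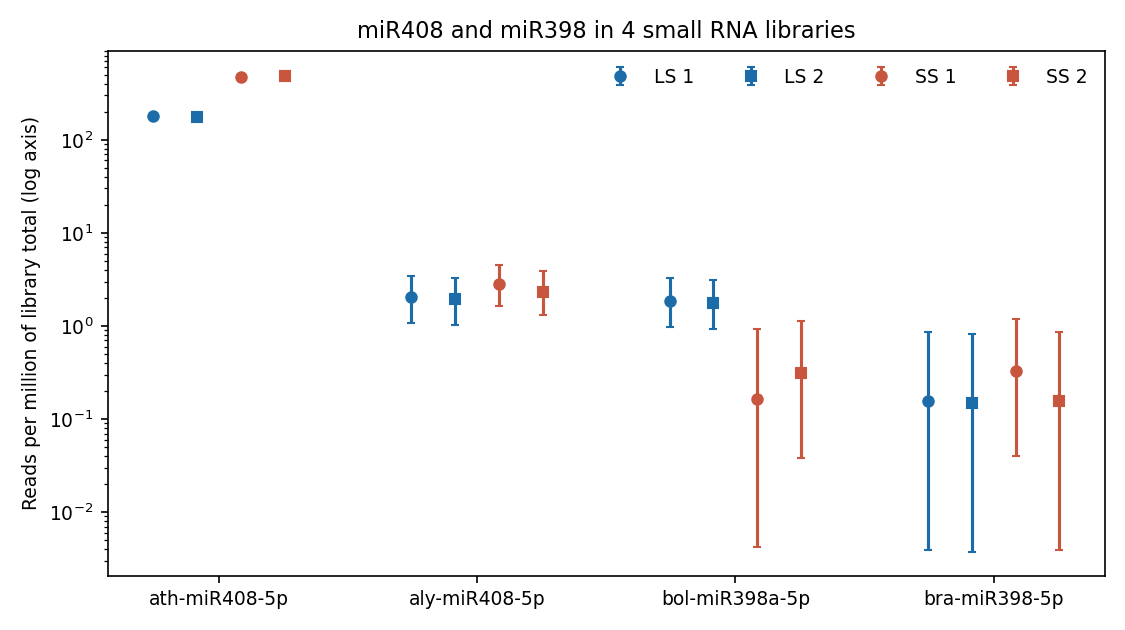
Level of each member in each library, in RPM on a log axis, with 95% Poisson intervals of the count. LS libraries are blue and SS libraries red, with circles for library 1 and squares for library 2. ath-miR408-5p stands near 178 RPM in LS and 477 RPM in SS, bol-miR398a-5p near 1.83 RPM in LS and 0.239 RPM in SS, and the intervals overlap between the lines for every member but ath-miR408-5p.

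bol-miR398a-5p went the other way and fell in SS. Each LS library held 12 of its reads, SS library 1 held 1 and SS library 2 held 2. These were 1.87 and 1.78 RPM in LS and 0.165 and 0.312 RPM in SS, so the values of the lines did not overlap, as was the case with SS below LS for 11.6% of the known names. The counting intervals of single libraries did overlap between the lines, at 0.0378 to 1.13 RPM in SS library 2 against 0.967 to 3.27 RPM in LS library 1. The mean was 1.83 RPM in LS (counting interval 1.17 to 2.72) and 0.239 ± 0.104 RPM in SS (SD, n = 2). The ratio of LS to SS was 7.57 with an exact counting interval of 2.30 to 39.3, since it rests on 24 counts against 3. On the TMM scale the log2 fold change was -3.11 ± 0.67 (SE, edgeR adjusted p = 2.85e-05), and 17.3% of the 52 tested were called lower in SS. The standard error expected from counting alone was larger, at 0.88. It passed the count filter, 10 counts in at least 2 libraries, only through the LS libraries where it was high. Without the filter the log2 fold change was -3.06 ± 0.70 (edgeR adjusted p = 0.000103). With the LS libraries summed into 1 sample it was -3.14 (edgeR adjusted p = 8.58e-06), and DESeq2, which called 13.5% lower in SS, gave -3.32 (DESeq2 adjusted p = 0.0133).

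bra-miR398-5p, the other miR398 name, was near the detection limit in every library. Each LS library held 1 of its reads, SS library 1 held 2 and SS library 2 held 1, or 0.156, 0.148, 0.331 and 0.156 RPM. The lines did not differ detectably, with a ratio of SS to LS of 1.58 and an exact counting interval of 0.182 to 19.0. It lay under the count filter. In LS, bol-miR398a-5p thus held 24 of 26 miR398 reads, and in SS 3 of 6.

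Summed by family, miR408 rose and miR398 fell in SS. The miR408 sum reached 1166 and 1194 reads in LS against 2861 and 3113 in SS, and its log2 fold change was 1.05 ± 0.04 (SE, edgeR adjusted p = 7.96e-33). This sum is almost all ath-miR408-5p. The miR398 sum was 13 reads in either LS library and 3 in either SS library, a ratio of LS to SS of 4.10 (exact counting interval 1.65 to 12.2). Its log2 fold change was -2.36 (edgeR adjusted p = 5.37e-05), and the fit's standard error of 0.25 lay below the 0.65 that counting alone gives. Like bol-miR398a-5p, the sum passed the count filter only through the LS libraries, and without the filter it was -2.33 (edgeR adjusted p = 6.25e-05). DESeq2 did not call it (-2.42, DESeq2 adjusted p = 0.116). Across the 32 tested families, 31.2% were called higher and 25.0% lower in SS.

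The families were also set against each other within each library, where no scaling enters. This ratio uses the same counts as above, and it shows a difference between the families but not the direction of either. For each miR398 read there were 89.7 miR408 reads in LS library 1 and 91.8 in LS library 2. In the SS libraries there were 954 and 1038. Both SS ratios lay above both LS ratios. Ratios within a line lay close together, but they rest on 13 miR398 reads in each LS library and 3 in each SS library. For the 3 reads of SS library 1 the counting interval was 0.102 to 1.45 RPM, so this closeness is no measure of precision. The mean log2 ratio, with 0.5 added to both counts, was 6.45 in LS and 9.74 in SS, a difference of 3.29. The exact two-sided permutation test again gave p = 0.333, the smallest that these 4 libraries allow. Fisher's exact test on the summed reads gave an odds ratio of 10.97 (4.41 to 32.6, p = 8.33e-10), which covers counting error only and rests on 6 miR398 reads in SS.

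**Figure D2:**
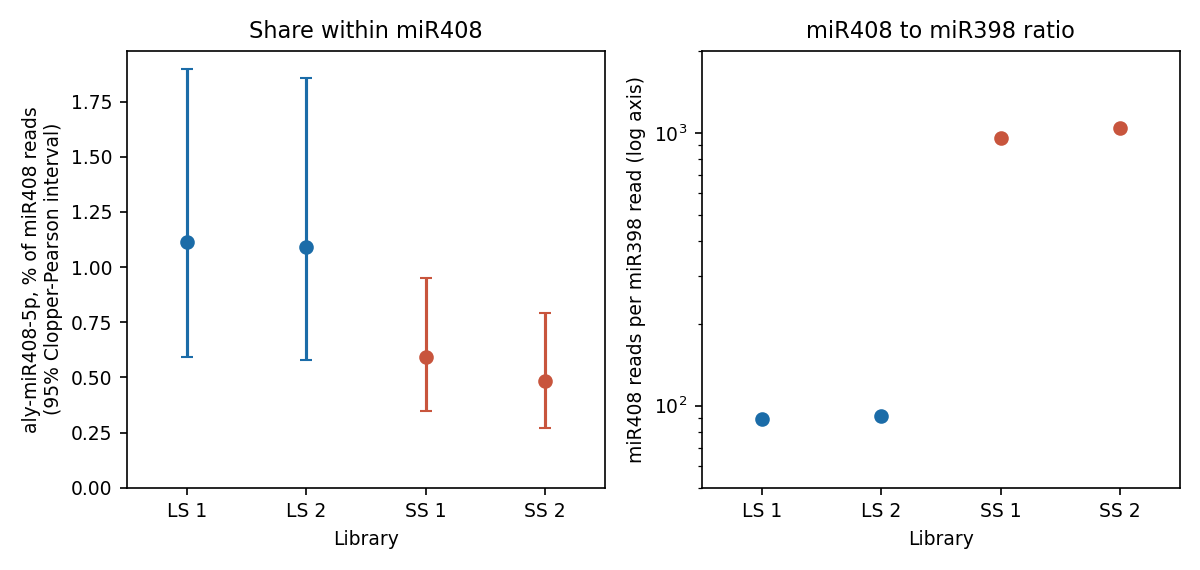
Measures taken within each library and therefore free of scaling. The left panel shows aly-miR408-5p as a percentage of all miR408 reads with its 95% interval, near 1.10% in LS (blue) and 0.538% in SS (red). The right panel shows miR408 reads per miR398 read on a log axis, between 89.7 and 91.8 in LS and between 954 and 1038 in SS, without an interval.

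Of the Arabidopsis copper-linked set miR397, miR398, miR408 and miR857, the table held 5 names, and 3 of them had enough counts to be tested. One of the 3 was called higher in SS, 1 lower, and 1 neither, beside 51.9% called in either direction over all 52 tested. The lower one, bol-miR398a-5p, passed the count filter only through the LS libraries. On the TMM scale the log2 fold changes of the 3 were -3.11, 0.08 and 1.13, so their median is the value of aly-miR408-5p alone. It does not describe the set. The median of all tested miRNAs was 0.12. The only name outside miR408 and miR398 was bna-miR397a, whose family acts on laccases and whose name states no arm. It was counted 2 and 4 times in LS against 5 and 11 times in SS, or 0.453 RPM (counting interval 0.167 to 0.993) in LS and 1.27 ± 0.630 RPM (SD, n = 2) in SS. Both SS libraries lay above both LS libraries, as for 69.6% of the known names. The ratio of SS to LS in RPM was 2.82, with an exact counting interval of 1.05 to 8.79 that covers counting error only. bna-miR397a lay under the count filter, and without the filter its log2 fold change was 1.22 ± 0.67 and did not pass (edgeR adjusted p = 0.144). No name of miR857 was in the table.

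**Figure D3:**
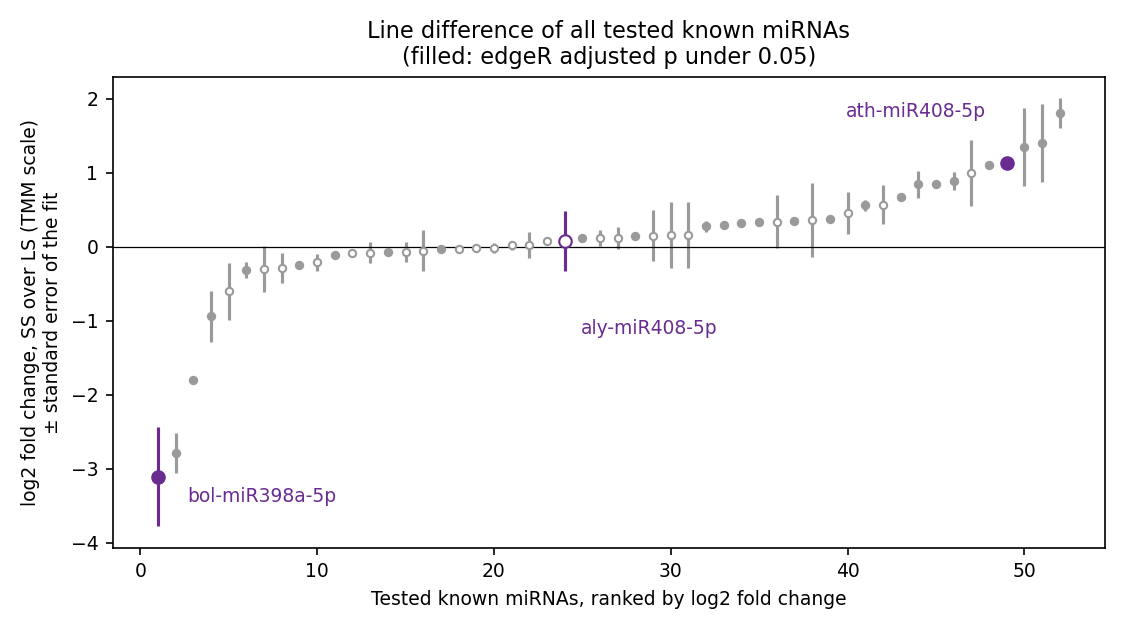
log2 fold change of SS over LS on the TMM scale for the 52 tested known miRNAs in rank order, with the standard error of the fit as bars. Filled points passed edgeR's test and open points did not, and members are purple. ath-miR408-5p is 4th from the top at 1.13, aly-miR408-5p lies near 0 at 0.08, and bol-miR398a-5p lies at -3.11, having passed the count filter only through the LS libraries.

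The usual guide arm was set for each family and not from these counts, so an opposite arm need not be the rarer strand. In every library the opposite-arm name was counted more often for bra-miR158-5p against ath-miR158a-3p and for ath-miR160a-3p against ath-miR160a-5p. The same held for ath-miR393b-3p against ath-miR393a-5p. It was counted less often for ath-miR171b-5p against ath-miR171a-3p, and for miR2111 the order differed between libraries. Some of these pairs join names of different genes or species entries, so they are not the 2 arms of 1 known hairpin. Among the 14 names in the table that denote the arm opposite to the usual guide, 10 were not members. These came from miR158, miR160, miR171, miR172, miR393 and miR2111, and 8 of them were tested, with log2 fold changes from -0.94 to 1.34 on the TMM scale. Of the 8, 1 was called higher in SS (gma-miR172h-5p) and 2 lower (bra-miR2111b-3p and bra-miR158-5p), with a median of -0.15. Over all 52 tested on this scale, 34.6% were called higher and 17.3% lower. However, gma-miR172h-5p passed the count filter only through the SS libraries where it was high. Without the filter its log2 fold change was 1.39 (edgeR adjusted p = 0.031). With the library totals bra-miR158-5p turned from -0.08 to 0.22 and the call of bra-miR2111b-3p ended. The calls of gma-miR172h-5p and bra-miR2111b-3p also ended with DESeq2 and in some fits with 1 library fewer, and that of bra-miR158-5p ended without the count filter. On the scale of the library totals 4 were called higher and 0 lower, with a median of 0.15. On that scale 63.5% of all tested miRNAs were called higher and 5.77% lower, and ath-miR408-5p (1.43) was among the former and bol-miR398a-5p (-2.82) among the latter. Neither miR408 nor miR398 has a counted 3′ arm name, so no ratio of the arms could be formed for them.

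The tested miRNAs nearest in pattern were found by the Euclidean distance of log2(RPM + 0.5), centred over the 4 libraries. Nearest to ath-miR408-5p was ath-miR157a-5p at a distance of 0.0411, with 434 and 437 RPM in LS and 1131 and 1168 RPM in SS. ghr-miR827a followed at 0.290 and ath-miR164a at 0.291, against a median of 1.08 over the tested miRNAs that were not members. Nearest to bol-miR398a-5p was ath-miR159a at 0.184, with 130 and 131 RPM in LS and 42.8 and 49.5 RPM in SS. ath-miR160a-5p followed at 0.875 and bra-miR2111b-3p at 1.17, against a median of 2.06. With 4 libraries in 2 lines, this likeness mostly restates the line difference. The 0.5 added shrinks that difference where values are low, as for bol-miR398a-5p. On the TMM scale the log2 fold change was -3.11 for bol-miR398a-5p, -2.78 for ath-miR160a-5p, -1.79 for ath-miR159a and -0.94 for bra-miR2111b-3p. The place of ath-miR159a as nearest therefore depends on the added 0.5.

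In the authors' deposited tables, each of which compares 1 SS with 1 LS library, ath-miR408-5p and bol-miR398a-5p were marked as changed in both numbered pairs. In the authors' deposited table the log2 fold change of ath-miR408-5p was 1.39 in pair 1 and 1.47 in pair 2, and that of bol-miR398a-5p was -3.50 and -2.51. aly-miR408-5p (0.47 and 0.28) and bra-miR398-5p (1.08 and 0.07) carry no mark in the authors' deposited table. Of the 69 known names, 14.5% were marked in both pairs.

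Degradome tables were searched for cut mRNAs assigned to either family. Degradome sequencing reads the exposed 5′ ends left when mRNAs are cut, and the authors' tables pair such ends with miRNAs. None of the 95 LS entries and 382 SS entries of known miRNAs named miR408 or miR398, nor miR397 or miR857. The LS table is cut off within an entry, and each line has 1 library, so there was no replicate check. The names there differ from the counted ones: of 32 known names in SS, 10 are also in the count tables and 22 are not, and 0 of the 11 names that state an arm denote the arm opposite to the usual guide. In LS the corresponding numbers were 26, 9, 17 and 0 of 8. Families with entries lay on both sides of miR408 in abundance. In SS the miR408 sum ranked 10 of 39 families by RPM, and of the 9 families above it 5 had entries and miR157, miR158, miR165 and miR167 did not. Of the 29 families below it, 15 had entries. Whether mRNAs were cut by the 3′ arm strands of miR408 or miR398 is therefore not answered by these tables.

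**Figure D4:**
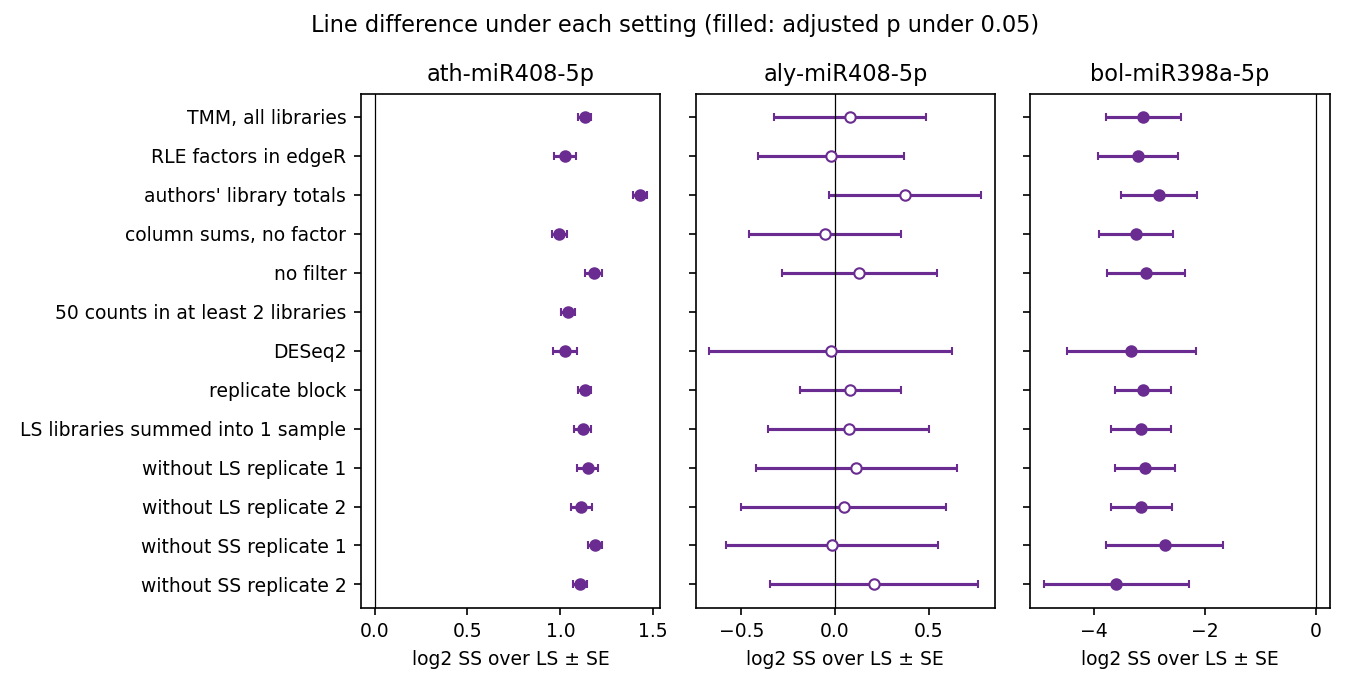
log2 fold change of SS over LS ± SE for the 3 tested members under each setting, with filled points past an adjusted p of 0.05. ath-miR408-5p stays between 0.995 and 1.43, bol-miR398a-5p between -3.59 and -2.73, and aly-miR408-5p between -0.05 and 0.38 without a call. The setting with 50 counts in at least 2 libraries tested only ath-miR408-5p.

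The directions and calls of ath-miR408-5p and bol-miR398a-5p held in every setting that tested them, as the plot of settings shows. Of the settings that tested bol-miR398a-5p, all but the fit without a filter kept the 10-count filter, which it passed only through LS. For bol-miR398a-5p the adjusted p reached 0.0284 without SS library 1, where SS rested on the 2 counts of library 2.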

How the data were processed

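The deposited read counts per miRNA are whole numbers that were not normalized, per the file headers. The deposited RPM values equal count divided by library total times 1000000, with 0.01 written for each count of 0. The authors' log2 fold changes and p-values in the deposited tables compare 1 SS with 1 LS library, by a test that is not given in the sources used here. The sources also name no aligner, genome build or miRNA database. The degradome tables were read for names, as text.

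Libraries were matched to tables by column names. The members and lists were chosen with earlier results of these data known. Known miRNAs that reached 10 counts in 2 libraries were tested with edgeR 4.0.16 (quasi-likelihood, TMM, two-sided) in R 4.3.3, with Benjamini-Hochberg adjustment over all 52 tested and a threshold of 0.05, and again after summing by family. The standard error was the log2 fold change divided by the square root of F. The LS libraries entered this fit as separate samples, so its p-values may be too small. Fits with a library left out or the LS libraries summed kept the same 52 miRNAs, and a lone library was assumed to vary like the other line's. DESeq2 1.42.0 used a local dispersion fit without independent filtering. Named miRNAs were all members, the copper-linked families, opposite-arm names and the 3 tested miRNAs nearest to each called member. Fisher's exact tests were added after the data were seen. Intervals of counts, shares and ratios are exact (scipy 1.17.1). The edgeR fit was first run on simulated counts as a check of the code. The simulated libraries were independent, unlike LS libraries that count as 1 sample, so this check lends the calls no support. Predicted miRNAs carry no family number and were not used here.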

Additional observations from a re-analysis of the deposited data

How the results depend on the processing

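Of 83 alternative values for 8 results, 75 kept their direction and their side of the threshold or, for the count of calls, stayed within 1.5 times. Among the 75, 5 values of the share of aly-miR408-5p and 6 of the miR408 to miR398 ratio came from permutation tests. With so few libraries those tests cannot give p below 0.333, so their side of the threshold was fixed in advance. Another 11 values of bol-miR398a-5p and 10 of the miR398 sum belong to features that passed the count filter only through LS. The 12 values of the miR408 sum largely repeat the 12 of ath-miR408-5p, and the 7 of aly-miR408-5p were not calls. The 75 values are therefore not separate pieces of support. aly-miR408-5p changed sign without a call with RLE factors (-0.023), with no factor (-0.053), with DESeq2 (-0.022) and without SS library 1 (-0.017), and the cause was not tested. The fall of miR398 as a family was not called by DESeq2 (-2.42, adjusted p = 0.116), also without a tested cause. The number of miRNAs past the test was 27 (18 higher, 9 lower), 36 with the authors' library totals (33 higher, 3 lower) and 17 with DESeq2. Fisher's exact test on summed counts, added after the data were seen, passed for the share of aly-miR408-5p (-0.566 percentage points) and for the miR408 to miR398 ratio (3.37 on the log2 scale), since it sets reads and not libraries against each other.

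With 1 library left out, the log2 fold change ranged from 1.11 to 1.18 for ath-miR408-5p, from -0.017 to 0.21 for aly-miR408-5p, from -3.59 to -2.73 for bol-miR398a-5p, from 1.04 to 1.08 for miR408 and from -2.38 to -2.30 for miR398. The number of calls ranged from 20 to 24, the share difference from -0.62 to -0.508 percentage points and the log2 ratio difference from 3.23 to 3.35. With 50 counts in at least 2 libraries, aly-miR408-5p, bol-miR398a-5p and miR398 could not be tested. With the replicate number as a block (replicate block), 23 miRNAs passed, and the log2 fold changes of ath-miR408-5p (1.13) and bol-miR398a-5p (-3.11, edgeR adjusted p = 0.0156) stayed called. Same-numbered libraries did not deviate together (Pearson correlation -0.258 across 52 miRNAs). Whether they shared a batch is not stated in the labels, and this correlation cannot settle it. With crossed pairing 25 passed. For miR398, depth limits precision: 3 counts in each SS library.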
